A study of Mus musculus with 18 samples.

Results

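The mitochondrial ribosomal protein genes of mouse quadriceps myofibers were examined as a group. They were taken as every gene whose symbol begins with Mrpl or Mrps followed by a digit, without pseudogenes, and with 10 or more reads in at least 3 of the 18 libraries. Of 43430 gene identifiers in the deposited table, 82 had such a symbol, 5 of these were pseudogenes, 1 was too low, and 76 were kept (47 Mrpl and 29 Mrps genes on 17 chromosomes). Male and female C57BL/6 mice (C57BL/6J in the study's methods), 10 weeks old at the start, received i.p. injections for 4 weeks of vehicle (DMSO in PBS), of prednisone at 1 mg/kg every day (daily), or of prednisone at 1 mg/kg once a week with vehicle on the other days (weekly). Weekly mice had their last prednisone 2 days before sacrifice, and all groups were injected daily. No group carried a genetic alteration. Each of the 6 groups of sex and treatment had 3 libraries of polyA RNA. Myofibers were prepared by collagenase digestion and straining of the muscle, so the preparation can hold cells other than fibers. The labels do not say how the replicates were raised or batched, and the p values describe the spread between these libraries.

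Mitochondria keep their own ribosome, the mitoribosome, which makes the few respiratory chain and ATP synthase proteins that mitochondrial DNA encodes. Its rRNAs come from mitochondrial DNA, but every one of its proteins is encoded in the nucleus, made on cytosolic ribosomes and imported. Mrpl genes mostly encode the large subunit, which joins amino acids, and Mrps genes mostly the small subunit, which reads the mRNA. Some of these proteins descend from bacterial ribosomal proteins, and others were added in the mitochondrial lineage. Skeletal muscle is rich in mitochondria, and prednisone is a synthetic glucocorticoid that acts through the glucocorticoid receptor, a transcription factor. By the structure-based names of the proteins, 49 members belong to the large subunit and 26 to the small subunit, and 45 are of bacterial type and 30 mitochondria specific. Mrps30 and Mrps18a carry small-subunit symbols but encode large-subunit proteins. Mrps36 is counted in neither, because its product is now known as a component of the 2-oxoglutarate dehydrogenase complex.

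The 18 libraries held 10506661 to 14686654 counted reads. Every member had at least 10 reads in all 18 libraries, and the lowest value was 64 reads (Mrpl19), so all 76 entered the tests. Just inside the count rule were Mrpl19 (64 to 164 reads) and Mrpl46 (109 to 236 reads), far above the limit. Outside it was Mrpl53, with 0 to 8 reads. Among the pseudogenes left out, Mrpl23-ps1 had 7 to 21 reads per library, and Mrpl48-ps, Mrps36-ps1, Mrps36-ps2 and Mrps36-ps3 had 0. Mrpl33 was not analysed here. The fiber genes Acta1, Ckm, Myh4, Ttn, Des and Mb summed to between 82117 and 155521 CPM (read counts scaled to library size by edgeR's TMM factors) in each library. One library stood apart. Female weekly replicate 1 had 2325 CPM over 10 slow fiber genes, against 112 to 581 CPM in the other libraries, and its members took 0.367% of all reads, the highest share of the 18. For several results that rest on it, values without it are also given.

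In vehicle-treated muscle the members differed widely in level. The mean over the 6 vehicle libraries ran from 9.97 to 178 CPM, with a median of 28.5 CPM. Per kilobase of exon, which allows genes to be compared, the highest members were Mrps21 (104 ± 18.1 CPM per kb, SD, n = 6), Mrps28 (71.3 ± 12.1) and Mrpl12 (69.2 ± 9.53). Mrps21 and Mrps28 encode small-subunit proteins, and Mrpl12 encodes a protein of the stalk that recruits translation factors. The lowest were Mrps35 (1.75 ± 0.176), Mrpl19 (1.83 ± 0.232) and Mrpl47 (2.80 ± 0.320). Mrps28 and Mrpl12 lay within each other's SD, and so did Mrps35 and Mrpl19. Exonic length here is the union of all annotated transcripts and ran from 607 to 8631 bases, so genes with many long minor transcripts come out low on this scale. Female vehicle muscle had a median member log2 difference of -0.16 from male vehicle muscle, with 71 of 76 members lower in females, against 0.02 over all tested genes. No member passed edgeR at an adjusted p under 0.05 (0.61% of genes did in this direction). At an unadjusted p under 0.05 there were 4 members, all lower in females (5.72% of all genes).

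Daily prednisone in males gave the clearest result. Of the 76 members, 74 had lower estimates than in vehicle males, and 27 fell at an edgeR adjusted p under 0.05, while none rose. Over all 13596 tested genes, 4.38% fell by the same rule. The median log2 fold change of the members was -0.57, a change of -32.8%, where the median of all tested genes was 0.05. At the level of single libraries, 65 of 76 members had all 3 daily values below all 3 vehicle values, compared with 17.1% of all tested genes. In bulk RNA, a lower content of mitochondria-rich fibers and less of these mRNAs per fiber cannot be told apart. The average member level (mean log2 CPM) was 5.14, 4.97 and 4.94 in the vehicle males and 4.52, 4.34 and 4.59 in the daily males, so the groups did not overlap. The members' share of all reads was 0.241 to 0.290% in vehicle males and 0.197 to 0.218% in daily males.

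**Figure D1:**
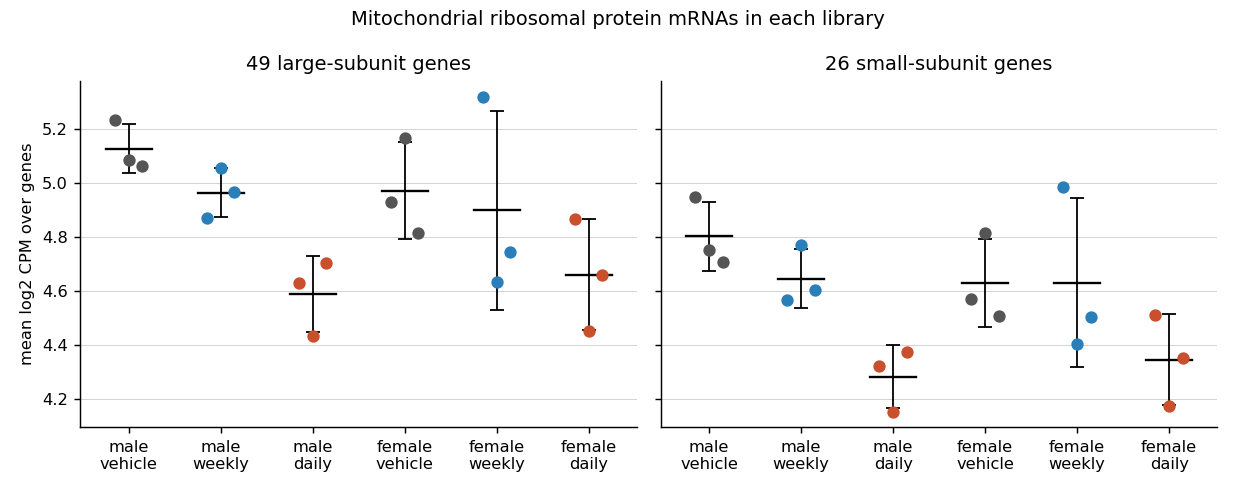
Mean log2 CPM over the large-subunit genes (left) and the small-subunit genes (right) in each of the 18 libraries (points), with group mean (line) and SD (bars), n = 3 per group. In both panels the 3 male daily libraries lie below the 3 male vehicle libraries, and female weekly replicate 1 is the highest point.

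The largest fall was in Mrpl52, a mitochondria-specific large-subunit gene (chr14:54426909-54429750, mm10). Its level was 36.1, 28.3 and 33.0 CPM in vehicle males and 15.9, 17.8 and 15.2 CPM in daily males, a log2 fold change of -0.995 ± 0.16 (SE; edgeR adjusted p = 0.00676). Every daily value was thus well under the lowest vehicle value. Mrps28 (chr3:8802146-8923918) encodes the small-subunit protein bS1m. It went from 67.4, 55.9 and 57.4 CPM to 36.5, 29.0 and 29.2 CPM (-0.93 ± 0.19; edgeR adjusted p = 0.0125). Mrpl28 (chr17:26123520-26126613), a bacterial-type large-subunit gene, went from 54.4, 49.05 and 55.1 CPM to 29.7, 22.9 and 30.9 CPM (-0.93 ± 0.17; edgeR adjusted p = 0.00858). The first 3 members by size of change therefore came from both subunits and both evolutionary classes.

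Mrpl57 (chr14:57826239-57828745), another mitochondria-specific large-subunit gene, had 23.6, 20.9 and 24.5 CPM in vehicle males and 12.1, 11.3 and 13.4 CPM in daily males (-0.91 ± 0.22). Mrps21 (chr3:95862634-95871519), the member with the highest level per kilobase, had 84.9, 72.4 and 74.5 CPM against 43.0, 35.3 and 46.3 CPM (-0.90 ± 0.21). Mrps12 (chr7:28739641-28741820) encodes uS12m, the decoding-center protein whose bacterial counterpart is known from streptomycin resistance. Its values were 40.9, 30.7 and 32.8 CPM against 17.7, 18.5 and 20.9 CPM (-0.87 ± 0.14; edgeR adjusted p = 0.00578). Mrpl12 (chr11:120484613-120489065) had 123, 109 and 119 CPM against 69.5, 54.8 and 68.0 CPM (-0.87 ± 0.17). Mrps24 (chr11:5703983-5715680) encodes uS3m at the mRNA entry channel. It had 41.7, 36.7 and 40.9 CPM against 23.1, 20.7 and 23.4 CPM (-0.83 ± 0.18). These 8 members were chosen for groups without overlap, and their folds lay between 0.502 and 0.563 of vehicle. Mrps24 shares its strand and some sequence with Urgcp, Mrps28 with Gm15466, and Mrpl12 lies opposite Gm16755. The strand setting of the counting is not given in the sources used here, so reads in these overlaps cannot be assigned.

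**Figure D2:**
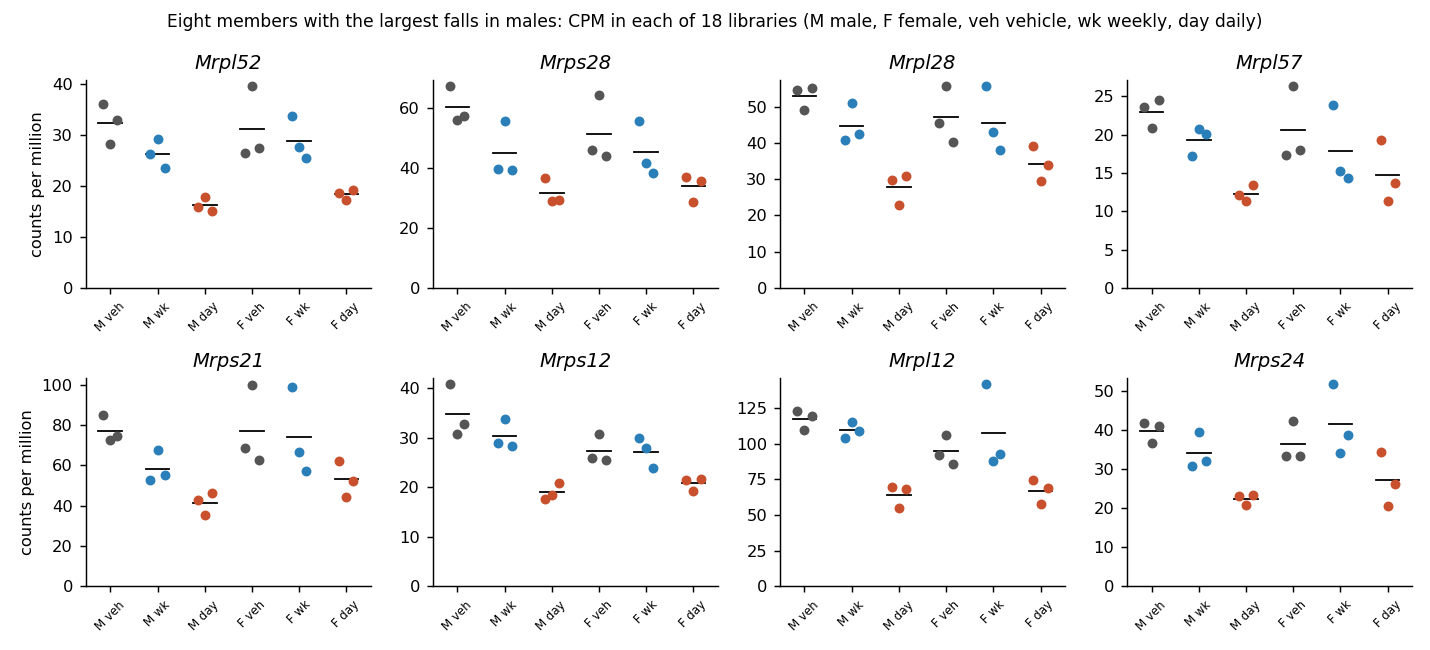
CPM of the 8 members with the largest falls in daily males, 1 point per library and a line at the mean of 3 libraries, with the axis from 0. In each panel the male daily points lie below all male vehicle points. The female daily points overlap the female vehicle points in Mrpl57 and Mrps24.

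The calls changed with the libraries used. Leaving out 1 of the 6 male vehicle or daily libraries left 3, 15 or 11 members called (without vehicle replicates 1, 2 and 3) and 11, 2 or 5 (without daily replicates 1, 2 and 3). The share of all genes called lower in these fits was 0.441, 2.01 and 1.41%, and 1.64, 0.601 and 0.791%. Mrpl52 and Mrps12 were called in all 6 of these fits. Without female weekly replicate 1, which is in neither group of this comparison, 44 members were called (6.35% of all genes were called lower). These held all 27. Leaving it out changed the estimate of the spread, the filter (13821 genes tested) and the scaling.

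The fall was seen in both subunits. Among the 49 large-subunit members, 17 were called lower in daily males and all 49 had negative estimates (median -0.57). Among the 26 small-subunit members, 10 were called lower and 24 were negative (median -0.56). By origin, 19 of 45 bacterial-type members (median -0.60) and 8 of 30 mitochondria-specific members (median -0.49) were called. These differences between classes were not tested.

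Large-subunit members can be followed along the ribosome. At the base of the factor-binding stalk, Mrpl11 was called lower (-0.67 ± 0.16; edgeR adjusted p = 0.0231), and Mrpl10 had a value of -0.22 ± 0.15 (edgeR adjusted p = 0.418), while Mrpl12, the stalk protein itself, was among the largest falls. In the core around the peptidyl transferase center, Mrpl2 fell (-0.63 ± 0.17; edgeR adjusted p = 0.0398). Its neighbors there, Mrpl3 (-0.18 ± 0.20) and Mrpl16 (-0.39 ± 0.19), did not pass the test. Mrpl18, of the central protuberance, had -0.46 ± 0.23 and did not pass.

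Around the exit of the nascent chain, Mrpl23 (-0.65 ± 0.20; edgeR adjusted p = 0.0652), Mrpl24 (-0.30 ± 0.12) and Mrpl45 (-0.32 ± 0.23), the last of which lies at the exit facing the inner membrane, did not pass. Nor did Mrpl44 (-0.45 ± 0.21), related to RNase III, or Mrpl58 (-0.70 ± 0.23; edgeR adjusted p = 0.0782), a peptidyl-tRNA hydrolase built into the large subunit that can rescue stalled ribosomes. Mrpl23 shares sequence with its pseudogene Mrpl23-ps1, and reads of the pair may be divided uncertainly. Mrps30, a large-subunit protein despite its symbol, had -0.66 ± 0.23 (edgeR adjusted p = 0.0971).

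In the small subunit, Mrps12, Mrps16 (-0.77 ± 0.16; edgeR adjusted p = 0.0141) and Mrps7 (-0.65 ± 0.17; edgeR adjusted p = 0.0353) fell. Mrps7 belongs to the head, and Mrps16 is linked to inherited mitochondrial disease in people. Mrps11, of the platform near the mRNA exit, had -0.63 ± 0.19 and just missed the threshold (edgeR adjusted p = 0.0561). It overlaps Mrpl46 head to head, and Mrpl46 had -0.31 ± 0.17. Mrps22 (-0.25 ± 0.15), Mrps34 (-0.37 ± 0.21) and Mrps5 (-0.16 ± 0.17) did not pass. Mrps34 overlaps Nme3 on the same strand.

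Mrps2, one of the small-subunit genes, stood at the other end of the range. Its level was 18.1, 13.9 and 14.3 CPM in vehicle males and 16.5, 14.96 and 18.8 CPM in daily males (0.12 ± 0.20; edgeR adjusted p = 0.768), and the groups overlapped. Mrps36, the dehydrogenase component, had -0.63 ± 0.24 (edgeR adjusted p = 0.121).

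The 3 mouse relatives of the bacterial protein S18 differed from each other. Mrps18c, the form in the bacterial position, had 24.4, 19.5 and 18.2 CPM in vehicle males and 12.2, 12.6 and 11.7 CPM in daily males, and it fell (-0.77 ± 0.18; edgeR adjusted p = 0.0225). Mrps18a, the form in the large subunit, had 58.2, 48.4 and 53.9 CPM against 33.9, 32.5 and 39.9 CPM (-0.60 ± 0.18; edgeR adjusted p = 0.0546), without overlap. Mrps18b, a form on the small subunit that has no bacterial position, had 16.8, 13.4 and 13.7 CPM against 16.1, 12.4 and 15.96 CPM (0.02 ± 0.17; edgeR adjusted p = 0.968). The difference between the relatives was not tested.

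In females, daily prednisone gave lower estimates for most members, and none passed the test. The median member log2 fold change was -0.31, a change of -19.2%, against 0.01 over all tested genes, and 72 of 76 members were negative. No member passed edgeR at an adjusted p under 0.05, where 0.25% of all genes were called lower, and the smallest member adjusted p was 0.0517. At an unadjusted p under 0.05, 28 members were lower and none higher (7.66% of all genes were lower). DESeq2 called 2 members lower, Mrpl52 and Mrpl11 (1.77% of all genes), and limma-voom called 0. Without female weekly replicate 1, edgeR called 5, where 1.37% of all genes were called lower. In 23 of 76 members all 3 daily values lay below all 3 vehicle values, against 10.2% of all tested genes, and each of these 23 was also separated in males.

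The average member level (mean log2 CPM) was 4.81, 5.05 and 4.71 in vehicle females and 4.75, 4.36 and 4.56 in daily females, so these groups overlapped. Mrpl52 again had the lowest estimate. It went from 26.5, 39.7 and 27.4 CPM to 18.7, 17.3 and 19.2 CPM, without overlap (-0.76 ± 0.16; edgeR adjusted p = 0.0517). Next were Mrpl54 (-0.68 ± 0.21), a mitochondria-specific large-subunit gene, and Mrpl23 (-0.67 ± 0.20). At the other end were Mrps18b (0.14 ± 0.17), Mrpl50 (0.13 ± 0.20) and Mrps22 (0.12 ± 0.15), whose groups overlapped.

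The order of the members was similar in the sexes, which share no libraries. Across the 76 genes, the log2 fold changes in males and in females had a Pearson r of 0.83 and a Spearman rho of 0.83. Genes in the same libraries are not independent, and no p is given. All 27 members called in males had negative estimates in females, and 24 of them had an unadjusted p under 0.05 there. The estimate was less negative in females in 73 of 76 members, with a median difference of 0.23 log2 units (0.03 over all tested genes). With 1 library left out this median ran from 0.14 to 0.33. The average member level (mean log2 CPM) was 5.02 in vehicle males and 4.86 in vehicle females. In daily mice it was 4.48 in males and 4.56 in females, so the difference includes the lower start in females. No member's sex difference passed edgeR, DESeq2 or limma-voom (by edgeR, 0% of all genes passed with a higher estimate in females). In edgeR 1 member, Mrps12 (0.48 ± 0.19), had an unadjusted p under 0.05, against 2.13% of all genes in this direction. A p above the threshold does not show that the sexes respond alike.

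**Figure D3:**
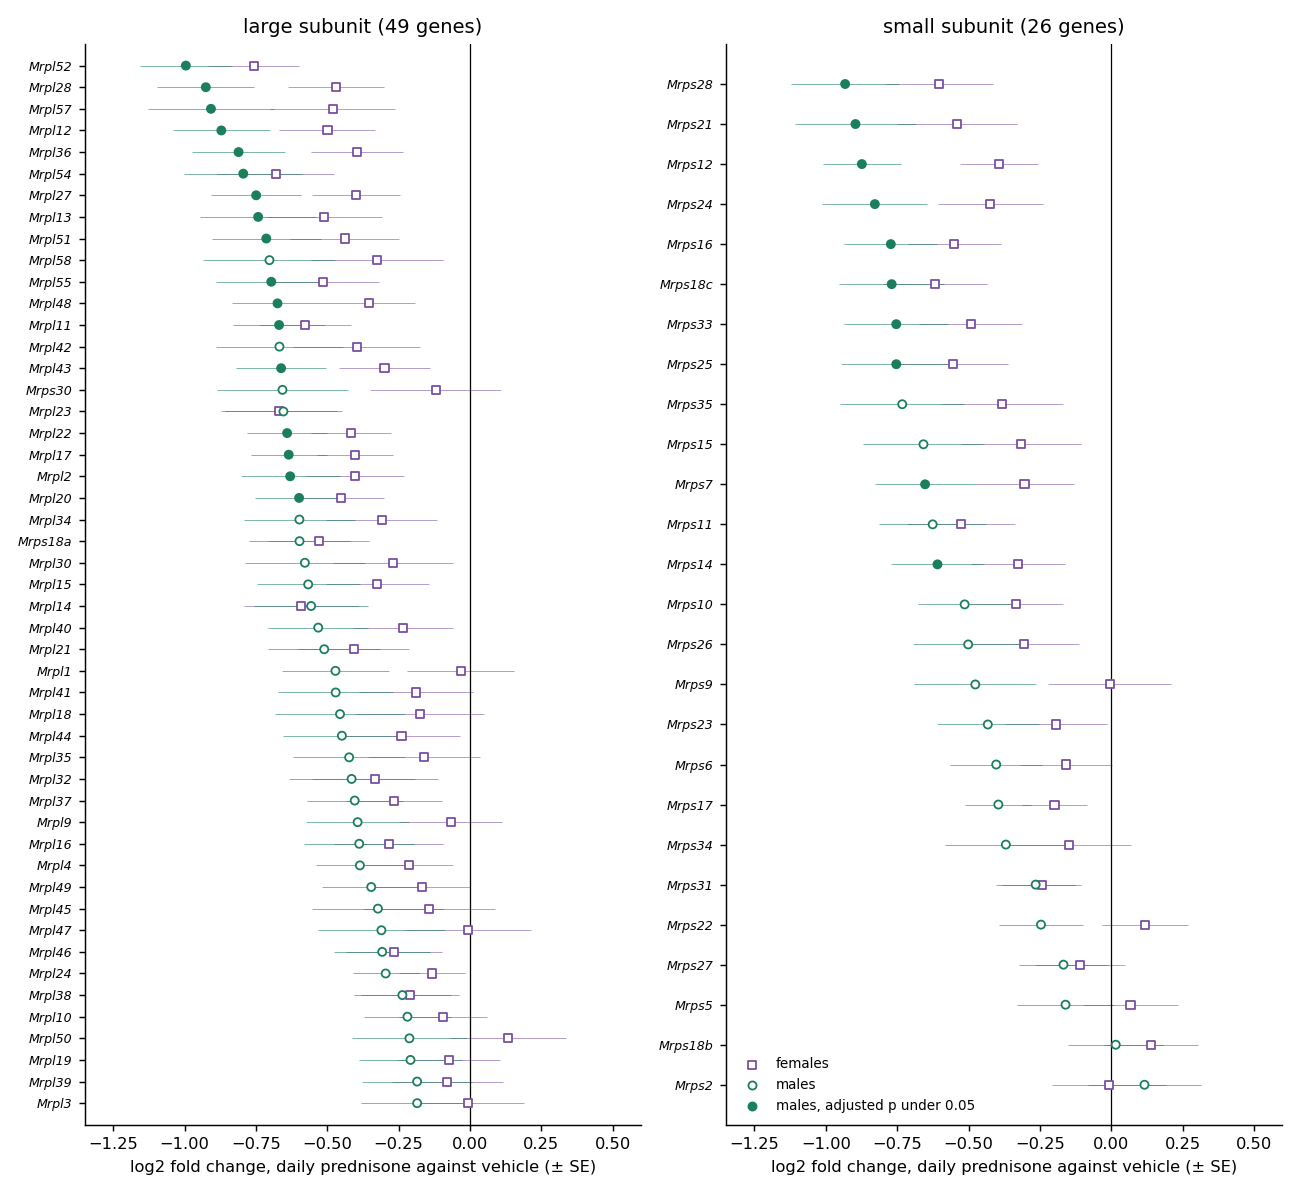
Log2 fold change (± SE) of each large-subunit (left) and small-subunit (right) gene under daily prednisone, in males (circles, filled where the edgeR adjusted p is under 0.05) and females (squares, none called), ordered by the male value. Mrpl52 and Mrps28 lead their subunits in males, and most squares lie between the circle and 0.

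Averaged over the sexes, 41 of 76 members fell under daily prednisone and none rose, where 7.47% of all tested genes fell. The median was -0.44 (-26.3%), against 0.02 over all tested genes. With a score of 10 adipocyte genes as a covariate, no member was called (edgeR called 17 genes in all, 0.0736% of genes lower) and the median was -0.50. The score did not overlap between vehicle and daily libraries in either sex, so that fit cannot separate it from the treatment. All 27 members called in males were among the 41. Those with the largest falls and with separate groups in both sexes were Mrpl52 (-0.88 ± 0.11; edgeR adjusted p = 0.000507), Mrps28 (-0.77 ± 0.13), Mrpl54 (-0.74 ± 0.15), Mrps21 (-0.72 ± 0.15), Mrpl28 (-0.70 ± 0.12), Mrps18c (-0.69 ± 0.13), Mrpl12 (-0.69 ± 0.12) and Mrps16 (-0.66 ± 0.12). Several panel genes that missed the threshold in males alone passed here, namely Mrpl23 (-0.66 ± 0.14), Mrpl58 (-0.51 ± 0.16), Mrps11 (-0.58 ± 0.13) and Mrps18a (-0.56 ± 0.13). With each of the 12 vehicle and daily libraries left out in turn, Mrpl58 was called in 2 of the 12 fits (largest edgeR adjusted p = 0.105), and the others in all 12. Leaving out 1 of the 18 libraries left 31 to 49 members called, where 4.65 to 9.29% of all genes were called lower.

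Under weekly prednisone no member passed the test. In males the median was -0.15 with 70 of 76 negative, in females -0.03 with 47 negative, and over both sexes -0.09 with 61 negative. The medians over all tested genes were 0.01, 0.01 and 0.02. No member passed edgeR in weekly males, weekly females or both sexes (0% of all genes were lower in each), and DESeq2 and limma-voom called 0 members as well. At an unadjusted p under 0.05, 2 members were lower in males (Mrps28 and Mrpl22; 2.71% of all genes), 1 in females (Mrps31; 2.29%) and 3 over both sexes (4.57%). In males, 22 members had all weekly values below all vehicle values, against 8.97% of all genes. In females this held for 0 members, against 3.13%, and 1 member, Mrps6, was separated upward. These female counts include replicate 1, whose average member level was above every vehicle female.

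The lowest values in weekly males were Mrps28 (-0.42 ± 0.19), Mrps21 (-0.40 ± 0.21) and Mrps30 (-0.40 ± 0.23), and the highest were Mrps27 (0.13 ± 0.16), Mrpl3 (0.07 ± 0.20) and Mrps34 (0.06 ± 0.21). In weekly females the lowest were Mrps31 (-0.31 ± 0.14), Mrpl16 (-0.21 ± 0.19) and Mrps18a (-0.21 ± 0.18). The highest were Mrps6 (0.27 ± 0.16), Mrps34 (0.23 ± 0.21) and Mrps22 (0.22 ± 0.15). Over both sexes, Mrps28 (-0.30), Mrpl22 (-0.26) and Mrps33 (-0.24) were lowest, and Mrps34 (0.15), Mrps6 (0.11) and Mrps18b (0.09) were highest. The average member level in weekly females was 5.21, 4.55 and 4.67, with replicate 1 above every vehicle female. Without that library the female median was -0.26 and the median over both sexes was -0.24. The difference in weekly response between the sexes went from a median of 0.16 to -0.06. The members named as lowest and highest in weekly females and over both sexes, and the counts of negative members there, include that library. No member's weekly sex difference passed edgeR, DESeq2 or limma-voom (by edgeR, 0% of all genes passed with a higher estimate in females). In edgeR 0 members had an unadjusted p under 0.05 (1.7% of all genes were higher in females).

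Daily and weekly treatment were also compared with each other. In males the median was -0.38 and in females -0.30, with 73 and 71 of 76 members lower under daily prednisone. edgeR called no member in either sex (0% of all genes were called lower). At an unadjusted p under 0.05, 39 members were lower in males and 27 in females (7.05% and 8.63% of all genes were lower). DESeq2 called 5 members lower in males, Mrpl12, Mrpl28, Mrpl52, Mrps12 and Mrps16 (0.633% of all genes were lower). In females it called 4 lower, Mrpl12, Mrpl20, Mrpl52 and Mrps16 (1.6%). With limma-voom the count of members was 0. Leaving out female weekly replicate 1 brought the female median to -0.05, and leaving out female daily replicate 2 brought it to -0.19.

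Other signals moved with the groups. Adipocyte genes, among them Adipoq, Plin1 and Cidec, summed to 355 to 642 CPM in vehicle males and 701 to 1569 CPM in daily males, and to 716 to 805 CPM in vehicle females and 1179 to 3477 CPM in daily females. In the weekly groups they summed to 733 to 1265 CPM in males and 955 to 5846 CPM in females. Of these 10 genes, 8 rose with daily prednisone over both sexes and none was called in males alone. For scale, edgeR with DESeq2 size factors, a different scaling from that behind these calls, called 2012 of 13596 genes over both sexes. Of the 2012, 1065 were lower and the rest higher. The main fit called 1016 lower. Cidea and Lep were at 0 in some libraries. With a score of the 10 adipocyte genes as a covariate, the member median in daily males was -0.61 and 1 member, Mrpl52, was called (0.177% of all genes were called lower). Of 10 fast fiber genes, 3 fell in daily males (Tnnc2, Tnni2 and Casq1), where 4.38% of all genes fell. The fast fiber genes summed to 130130 to 149738 CPM in daily males and 130970 to 184070 CPM in vehicle males. The 10 slow fiber genes summed to 186 to 224 CPM in daily males and 112 to 192 CPM in vehicle males, and 5 of them had values of 0. Macrophage genes summed to 62 to 80 CPM in daily males and 64 to 75 CPM in vehicle males, endothelial genes to 786 to 1136 and 588 to 1049 CPM, and fibroblast genes to 1368 to 3073 and 1489 to 3586 CPM. Of the macrophage genes, Cd68 rose in daily males and the other 9 were not called. No endothelial or fibroblast gene was called. Reads from mitochondrially encoded genes made up 16.95 to 32.6% of vehicle male libraries, 17.7 to 24.5% of daily male libraries, 21.1 to 26.3% of vehicle female libraries and 11.7 to 18.3% of daily female libraries. In weekly females the shares were 13.1, 36.4 and 20.3%, lowest where the member share was highest. The adipocyte score (mean log2 CPM) was at most 3.33 in vehicle males and at least 4.18 in daily males. In females it was at most 3.46 and at least 5.03. The covariate fit thus cannot separate the score from the treatment, and the part of these signals in the fall of the members was not tested.

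Shorter genes had somewhat more negative estimates. Across the 76 members, the male log2 fold change and log2 exonic length had a Pearson r of 0.27 (rho 0.28), and over 13534 tested genes r was 0.26 (rho 0.38). These are correlations across genes of the same libraries. The 38 shorter members (up to 2255 bases) had a median of -0.63 with 18 called, and the 38 longer ones (from 2533 bases) had a median of -0.49 with 9 called. When the trend of counts with length and GC was removed from each library, 18 members were called in daily males, 15 of them among the 27, where 1.68% of all genes were called lower. The member median was -0.42, against 0.02 over all tested genes. The shorter members then had a median of -0.35 and the longer ones -0.55, and the correlation with length turned to -0.41. Mrps21 and Mrps24 were among those no longer called, while Mrpl52, Mrps28, Mrpl28, Mrpl57, Mrps12 and Mrpl12 still were.

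**Figure D4:**
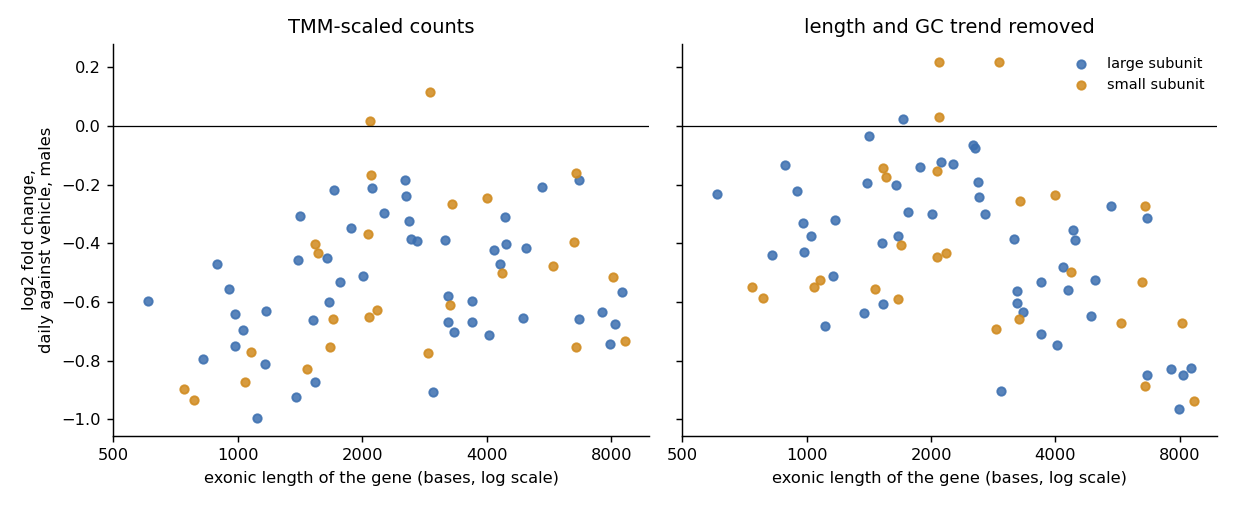
Log2 fold change of each member in daily males against the exonic length of its gene (log axis), from TMM-scaled counts (left) and with the length and GC trend removed (right). The points scatter widely about a weak trend, with a Pearson r of 0.27 on the left and -0.41 on the right, and nearly all stay below 0 in both.

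The members moved together from library to library. The correlation of each member's log2 CPM with the mean of the other 75 over the 18 libraries had a median of 0.89 and ran from 0.31 to 0.97, and 74 of 76 were above 0.5. With the group means removed, the median was 0.88. The libraries share depth and scaling factors, so this is given as a description. The members with the weakest relation, singled out after their values were seen, were Mrps2 (0.31) and Mrps18b (0.44), and the strongest were Mrpl13 and Mrpl15, both at 0.97. With the group means removed, Mrps2 had 0.72 and Mrps18b 0.84, and the lowest was Mrps6 (0.43). Mrps2 and Mrps18b were the only members with positive estimates in daily males. That is not a separate trait, because the correlation over the 18 libraries includes the differences between groups.

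Genes that work with the mitoribosome were described from lists. For comparison, 4.38% of all tested genes fell in daily males and 7.47% over both sexes. Of 5 subunits that carry other symbols, Aurkaip1 (-0.83) and Gadd45gip1 (-0.71) fell in daily males, and Chchd1 joined them over both sexes (-0.58). Dap3 (-0.30) and Ptcd3 (-0.20) did not pass in males, and the list median of -0.59 was near that of the members. Of 25 assembly factors, 3 fell in daily males (median -0.25). These were Malsu1 (-0.82), which keeps the large subunit from joining early, Rbfa (-0.57), which acts in small-subunit maturation, and Ngrn (-0.56). Of 15 tested translation factors, 2 fell (median -0.15), the elongation factor exchange protein Tsfm (-0.75) and the mRNA-stabilizing Slirp (-0.80). None of 20 mitochondrial aminoacyl-tRNA synthetase and amidotransferase genes (median -0.14) and none of 12 tested genes for mitochondrial DNA upkeep and transcription (median -0.08) was called in males, although Polg2 rose over both sexes (0.78).

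In daily females no gene of these lists was called by edgeR, and the medians were -0.37 for the other subunits, -0.03 for assembly factors, -0.02 for translation factors, 0.12 for synthetases and 0.03 for mitochondrial DNA genes. In weekly mice no gene of any list passed. Beside them stood related groups of genes. Nuclear complex I subunits had medians of -0.76 in daily males (25 of 38 called lower) and -0.49 in daily females. Cytosolic ribosomal proteins had -0.54 (56 of 84 called lower) and -0.56 (12 called lower). The 13 mitochondrially encoded mRNAs had -0.59 (1 called) and -0.88 (0 called). Over all tested genes, 4.38% were called lower in daily males and 0.25% in daily females. Lower values under daily prednisone were thus also found in these groups, and differences between the groups were not tested.

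**Figure D5:**
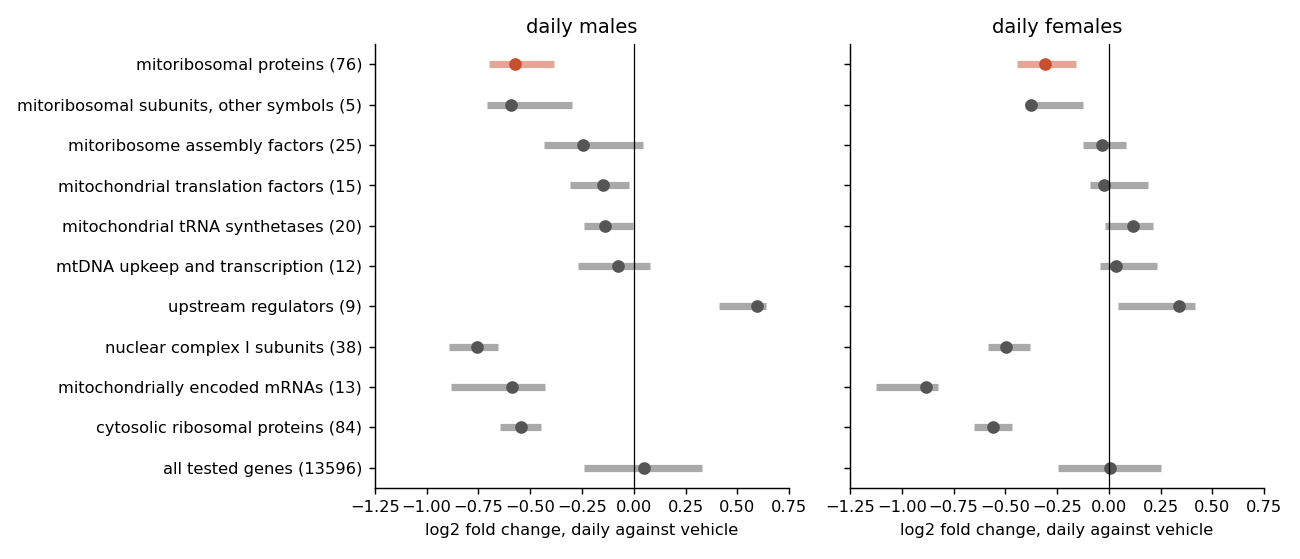
Median (point) and interquartile range (bar) of the log2 fold change under daily prednisone for each gene group, in males (left) and females (right), with the number of tested genes in brackets. The mitoribosomal proteins (median -0.57 in males and -0.31 in females) lie with the complex I and cytosolic ribosomal groups, and the regulators lie to the right of 0.

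Regulators of mitochondrial genes had mostly positive estimates. Of 9 known coactivators and factors, 8 had positive estimates in daily males. Gabpa, the DNA-binding subunit of the GABP factor that many mitochondrial genes use, rose in males (0.63; edgeR adjusted p = 0.0326). Over both sexes Gabpa (0.61), Yy1 (0.42), Pprc1 (0.49) and Ppargc1b (1.11) rose. In that contrast edgeR with DESeq2 size factors, a different scaling from that behind these calls, called 2012 of 13596 genes. Of the 2012, 1065 were lower and the rest higher. The main fit called 1016 lower. The coactivator Ppargc1a had 1.08 in males (edgeR adjusted p = 0.178) and 0.41 in females. Nrf1 had 0.03 and 0.05, Gabpb1 had 0.41 and 0.00, and Myc had 0.79 and -0.01. Esrra, the estrogen-related receptor alpha, was the exception with -0.53 in males (edgeR adjusted p = 0.0902) and 0.09 in females.

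Promoter sequences are shown for members with the largest falls in daily males. RefSeq windows (build GRCm38.p6) from 250 bases before to 50 after the start site were matched for 67 of 76 members. Mrpl4, Mrpl13, Mrpl15, Mrpl19, Mrpl38, Mrpl54, Mrps28, Mrps34 and Mrps35 had no match. The 150 bases before the start site follow, 5' to 3' on the gene's strand, with capitals for a match to the ETS motif bound by GABP (CCGGAAG) or the estrogen-related receptor half-site (AAGGTCA), on either strand:
Mrpl52, chr14:54426759-54426908, + strand: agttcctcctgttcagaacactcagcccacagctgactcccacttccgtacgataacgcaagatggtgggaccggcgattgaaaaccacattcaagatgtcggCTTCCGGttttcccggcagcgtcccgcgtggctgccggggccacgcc
Mrpl28, chr17:26123353-26123502, + strand: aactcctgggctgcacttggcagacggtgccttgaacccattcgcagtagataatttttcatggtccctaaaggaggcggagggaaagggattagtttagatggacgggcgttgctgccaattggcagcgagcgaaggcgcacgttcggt
Mrpl57, chr14:57826089-57826238, + strand: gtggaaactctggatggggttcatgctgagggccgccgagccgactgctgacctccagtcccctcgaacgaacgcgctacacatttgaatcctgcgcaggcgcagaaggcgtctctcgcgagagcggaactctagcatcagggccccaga
Mrps21, chr3:95871515-95871664, - strand: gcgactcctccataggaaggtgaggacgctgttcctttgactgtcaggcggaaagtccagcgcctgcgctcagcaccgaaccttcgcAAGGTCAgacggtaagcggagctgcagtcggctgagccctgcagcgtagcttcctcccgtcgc
Mrps12, chr7:28741822-28741971, - strand: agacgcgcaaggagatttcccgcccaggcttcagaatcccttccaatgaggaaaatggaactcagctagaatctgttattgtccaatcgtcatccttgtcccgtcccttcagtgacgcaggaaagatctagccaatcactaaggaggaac
Mrpl12, chr11:120484487-120484636, + strand: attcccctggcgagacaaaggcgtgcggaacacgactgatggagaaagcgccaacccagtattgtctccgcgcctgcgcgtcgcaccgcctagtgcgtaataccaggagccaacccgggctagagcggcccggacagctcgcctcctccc

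The ETS letters CCGGAAG were found, on either strand, in 23 of 67 member windows (34.3%), against 8.86% of 32817 RefSeq windows. Each member has only the window nearest its annotated start. The RefSeq windows are all distinct ones and are not limited to tested genes, so these sets are not matched. In Mrpl52 they begin at base -47 and again at base 3 after the start, in Mrpl57 at base 5, in Mrps12 at base 2 and in Mrps21 at base 19. The NRF1 core GCATGCGC was in 10.4% of member windows and 2.71% of all, the YY1 core AAGATGGCG in 11.9% and 1.4%, and the receptor half-site AAGGTCA in 5.97% and 4.72%. The glucocorticoid receptor core ACANNNTGT was in 4.48% and 6.85%. Member windows had a median GC content of 58.3% and all windows 52.7%, and CpG-rich motifs occur more often in GC-rich sequence. The 23 members with the ETS letters had a median of -0.64 in daily males with 12 called, and the 44 without had -0.49 with 12 called. For the NRF1 core the medians ran the other way, -0.39 in 7 members with it (2 called) and -0.60 in 60 without (22 called). For the YY1 core they were -0.61 in 8 members (2 called) and -0.56 in 59 (22 called), for the half-site -0.84 in 4 (3 called) and -0.53 in 63 (21 called), and for the glucocorticoid receptor core -0.60 in 3 (0 called) and -0.57 in 64 (24 called). None of these splits was tested. Mrps21 has a further half-site at base -175, outside the stretch shown, and Mrpl12 has one at base 34. The stretches of Mrpl28, Mrpl57, Mrps12 and Mrpl12 hold none of the NRF1, ETS, YY1 or half-site letters. A match is a description of letters in a window and not of binding.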

How the data were processed

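Polyadenylated RNA from myofibers was sequenced in 18 libraries. The authors deposited raw read counts of each gene. The submitters' processing notes name TopHat2 2.1.0, Bowtie2 2.2.6 and HTSeq, and the authors aligned to mm10. The strand setting and annotation release are not given in the sources used here. The deposited gene length was not used, because it exceeded the GENCODE M21 exon union by over 1.2 times for 30.01% of genes.

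Genes were filtered with filterByExpr (minimum count 10), scaled by TMM and fitted over all 18 libraries with 6 group means by edgeR 4.0.16 (robust quasi-likelihood test, R 4.3.3). P-values were adjusted by Benjamini-Hochberg over 13596 genes, and calls used 0.05. SE is the log2 fold change divided by the square root of F. DESeq2 1.42.0 and limma 3.58.1 were alternatives, with other filters, scalings, covariates and libraries left out. The fit was also run on simulated counts drawn independently for each gene. The members here vary together, so that run does not test their calls as a group. Replicate numbers were shared by groups, but same-numbered libraries did not deviate together in the contrasts with vehicle (correlations -0.471 to 0.447). Counts of any 2 libraries of a group differed by more than counting noise.

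Members named are up to 8 called falls and rises per contrast whose libraries did not overlap (3 lowest and 3 highest values where none was called), a panel chosen for known roles, and the highest and lowest levels. The members, lists and panel were chosen with earlier results of these data known.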

Additional observations from a re-analysis of the deposited data

How the results depend on the processing

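In daily males the count of members called lower, 27, was 28 with DESeq2 size factors, 38 with DESeq2, 28 with limma-voom, 24 with no filter, 32 with a stricter filter and 18 with the length and GC trend removed. The share of all genes called lower was 4.38% in the main fit. In these settings it was 4.57, 6.35, 4.41, 1.58, 5.99 and 1.68%, in the same order. The member count was 45 with the compared groups alone (6.86% of all genes) and 1 with an adipocyte score as covariate (0.177%). Leaving out 1 library gave 2 members (0.601% of all genes) to 44 (6.35%). In daily females the count of 0 (0.25% of all genes) became 2 with DESeq2 (1.77%) and 1 with the stricter filter (0.786%). It was 0 to 5 with 1 library left out, and 1.37% of all genes were called lower in the fit with 5. Over both sexes the count of 41 (7.47% of all genes) became 0 (0.0736%) with the adipocyte score as covariate. That score cannot be separated from daily treatment. The member median was then -0.50. The median in weekly females ran from -0.26 to 0.065 with 1 library left out, the lowest without female weekly replicate 1. The other medians against vehicle moved by less than the spread between replicates (0.195 log2 units) in all these settings. A replicate block, although the numbers did not pair the libraries against vehicle, gave 28, 0 and 40 members in daily males, daily females and both sexes. The shares of all genes called lower were 4.49, 0.0294 and 7.51%. With the length and GC trend also removed the block gave 19, 0 and 29 members (1.69, 0.0221 and 4.42% of all genes). Daily and weekly females with the same number did deviate together (0.571 to 0.644), and the block called 0 members there. The numbers come from the sample titles, and the labels give no pairing of these libraries. No named member that was called reversed its sign under any alternative. With 3 libraries a group, the median SE of a member in daily males was 0.18 log2 units, which limits what could be called. Where no cause is given above, the cause was not tested.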
